A study of Drosophila melanogaster with 2 samples.

Results

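Mitochondrial ribosomal protein genes were taken as the protein-coding genes whose symbol in the dm6 annotation begins with mRpL or mRpS. There were 73 of them among 13945 protein-coding genes, 47 named for the large subunit and 26 for the small subunit. Each was described by the Rel-GFP peaks whose summit lay in the gene or up to 1000 bp upstream, and 10 members carried a peak that the authors kept. The data are chromatin immunoprecipitations with sequencing (ChIP-seq) from whole Drosophila melanogaster larvae of the third instar, at the wandering stage, with males and females pooled and age unknown. The description names an antibody against GFP, while another label field names Rel. Both libraries, biological replicates 2 and 3, belong to 1 group: a transgenic line that stably expresses Rel with GFP at its C terminus. The labels name no second genotype, treatment or infection. They do not give the promoter that drives the fusion, nor how many larvae were pooled, and in whole larvae the cell types behind a peak cannot be told apart. Other lists used below are relaxed lists of 30000 regions each for the pooled reads and for each replicate, which mix peaks with background. The kept peaks passed the irreproducible discovery rate (IDR) procedure and number 2133, the same regions as the first 2133 of the pooled list. A rank counts from the strongest region of a list by the authors' signal value. Ranks and signals are compared between genes only within a list.

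Mitochondrial ribosomes translate the few proteins encoded by mitochondrial DNA, which are subunits of the respiratory chain and ATP synthase. Their RNAs come from the mitochondrial genome, but all their proteins are encoded in the nucleus, made in the cytosol and imported. Some have counterparts in bacterial ribosomes and others are found only in mitochondria. Rel, or Relish, is the NF-κB factor of the Imd immune pathway of the fly.

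The sequence at the strongest member peaks was rich in A and T and held few of the strings sought. The windows below run 75 bp either side of the pooled summit, on the strand of the member, with sequence from the RefSeq copy of release 6 (dm6). They are shown because they hold the centres of 3 of the strongest peaks (mRpS23, mRpS10 and mRpL2, without mRpL23, whose summit lay in a 5′ UTR), the window with the lowest GC content (mRpL24) and the only DRE core found near a member summit (mRpL20). Capitals mark strings found on either strand. At mRpL2 these are the GAGA repeat, spelled GAGAGAG, and then a TATA box, which reads TATAAA. At mRpL20 they are the core of the DNA replication-related element (DRE), which reads TATCGA.
mRpS23 summit, chr2L:13835375-13835525, minus strand: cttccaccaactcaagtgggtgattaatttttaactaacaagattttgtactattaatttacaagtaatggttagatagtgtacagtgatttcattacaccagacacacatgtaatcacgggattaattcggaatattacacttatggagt
mRpS10 summit, chr3R:15229443-15229593, plus strand: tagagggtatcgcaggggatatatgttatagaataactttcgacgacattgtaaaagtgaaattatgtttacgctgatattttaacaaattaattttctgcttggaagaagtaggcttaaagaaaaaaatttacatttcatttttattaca
mRpL2 summit, chr3L:11120400-11120550, plus strand: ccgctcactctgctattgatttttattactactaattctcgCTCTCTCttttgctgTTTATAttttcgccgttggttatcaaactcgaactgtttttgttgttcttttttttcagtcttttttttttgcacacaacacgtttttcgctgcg
mRpL24 summit, chr2L:4945392-4945542, minus strand: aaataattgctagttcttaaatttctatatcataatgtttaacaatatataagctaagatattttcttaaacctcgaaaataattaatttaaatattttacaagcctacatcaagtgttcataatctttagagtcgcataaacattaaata
mRpL20 summit, chr3L:13017992-13018142, minus strand: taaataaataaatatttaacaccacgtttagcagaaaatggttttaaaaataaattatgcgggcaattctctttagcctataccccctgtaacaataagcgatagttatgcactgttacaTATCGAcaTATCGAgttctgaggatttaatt

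GC content of these 151-base windows ran from 21.2 to 42.4% over the 10 members with an IDR summit, with a median of 31.8%. Over all 2133 IDR summits the median was 37.7%. A kB string, GGGRNNYYCC, occurred within 100 bp of 0 of the 10 member summits and of 20 of all 2133 (0.938%). Here R is A or G, Y is C or T and N is any base. Other spellings of the sequences bound by NF-κB proteins were not sought. The full DRE (TATCGATA) was also at 0 of 10, against 20 of 2133. A GAGA repeat lay near the mRpL2 summit alone among the members, against 11.1% of all summits. A TATA box was near 5 of the 10, against 30.7%, and a CA repeat, spelled CACACACA, near 2 of the 10 (mRpL2 and mRpS31), against 9.38%. These counts are descriptions of small numbers, and no test of them was made.

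Of the 73 members, 10 (13.7%) carried an IDR summit, against 10.6% of all protein-coding genes. They were mRpS23, mRpS10, mRpL23, mRpL2, mRpL41, mRpL24, mRpS6, mRpS31, mRpS2 and mRpL20. By subunit, 5 of 47 mRpL genes (10.6%) and 5 of 26 mRpS genes (19.2%) had one. Among the top 2133 regions of 1 replicate, the mRpS count was 2 in replicate 2 and 6 in replicate 3, while the mRpL counts were 5 and 6. The mRpS share was thus the higher one in replicate 3 and the lower one in replicate 2 (7.69% of mRpS genes), and no difference between subunits was tested. The share of all members was near the background, and the order of the shares turned under other settings. With no bases upstream it was 1.37% of members, against 6.48% of all genes. With each summit given to the nearest start it was 5.48%, against 6.93%, and with pooled regions of a q value under 0.05 it was 16.4%, against 17.5%. Member genes are short, with a median of 909 bp against 2166 bp for all genes, and 68 of the 73 were between 500 and 2000 bp. In that length class 10 of 68 members (14.7%) and 4.24% of all genes carried an IDR summit. Cytosolic ribosomal protein genes of that length had a share of 15.1% (11 of 73), and other gene classes are compared below.

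The strongest member peak lay upstream of mRpS23, a small-subunit protein that in mammals has no bacterial counterpart. It ranked 21 in the pooled list (chr2L:13835346-13835566, signal 367), 28 in replicate 2 (signal 200) and 13 in replicate 3 (signal 175). Both replicates placed it among their 30 highest regions, and their summits were 13 and 26 bp from the pooled summit. Its summit lay 378 bp upstream of the mRpS23 start and 114 bp from the start of CenG1A, a gene for an Arf GTPase-activating protein transcribed the other way.

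The peaks at mRpS10, mRpL23, mRpL2 and mRpL41 followed closely together in the pooled list. mRpS10, the small-subunit protein S10, had rank 181 (chr3R:15229320-15229715, signal 193), with ranks of 154 in replicate 2 and 251 in replicate 3 (signals 115 and 80.5). mRpL23, a large-subunit protein whose bacterial counterpart lies at the peptide exit tunnel, had rank 275 (chr3L:2373400-2373795, signal 165), with 280 and 379 in the replicates (signals 96.8 and 69.5). At both genes the replicates placed the region similarly, somewhat higher in replicate 2. mRpL2, a large-subunit protein whose bacterial counterpart lies by the peptidyl transferase centre, had rank 276 (chr3L:11120277-11120672, signal 165). Its rank was 1211 in replicate 2 (signal 56.9) and 103 in replicate 3 (signal 105). mRpL41, specific to mitochondria in mammals, had rank 285 (chr2R:15217588-15217983, signal 164), with 620 in replicate 2 and 151 in replicate 3 (signals 74.1 and 92.9). The mRpL2 and mRpL41 regions were thus stronger by rank in replicate 3, and all 5 of these leading regions were in the top 2133 of both replicates.

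The other 5 IDR peaks of members ranked in the lower part of the list. They lay at mRpL24, mRpS6, mRpS2 and mRpL20, whose proteins have counterparts in bacterial ribosomes, and at mRpS31, whose mammalian protein has none. mRpL24 had rank 1147 (chr2L:4945269-4945664, signal 96.2), with 937 in replicate 2 and 1948 in replicate 3 (signals 63.2 and 36.9). This was the sixth member in the top 2133 of both replicates. mRpS6 had rank 1413 (chr3L:4364265-4364660, signal 88.1), with 3421 in replicate 2 and 1213 in replicate 3 (signals 35.3 and 45.2). mRpS2 had rank 2053 (chr2L:4850409-4850804, signal 73.7), with 3271 and 1721 (signals 36.1 and 38.9). Both of these small-subunit genes reached the top 2133 of replicate 3 only. The same held for mRpS31 (rank 1623, chr3L:16004424-16004819, signal 82.6), at rank 893 in replicate 3 (signal 51.1). In replicate 2 its overlapping region ranked 7291, and a stronger one, rank 4097 (signal 32.1), lay 58 bp downstream of the mRpS31 start. mRpL20 was the reverse case, with rank 2077 in the pooled list (chr3L:13017869-13018264, signal 73.4), 1795 in replicate 2 (signal 47.4) and 6490 in replicate 3 (signal 20.7). mRpS2 and mRpL20 lay just inside the IDR list, whose last region had a signal of 72.5, as had the first region left out.

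**Figure D1:**
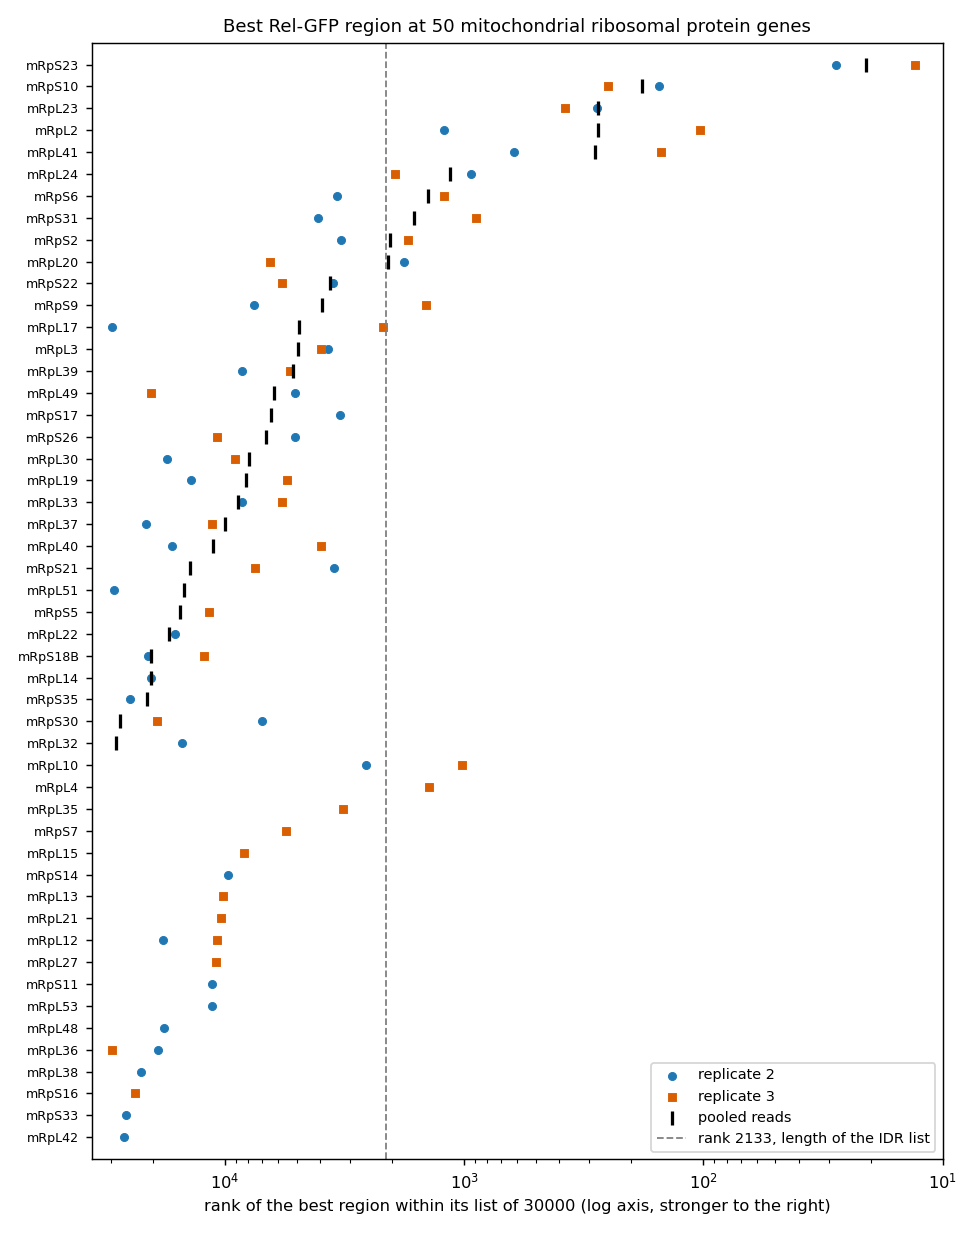
Rank of the best Rel-GFP region in the gene or 1000 bp upstream, for the 50 members with a region in any relaxed list. Each row is a gene, circles are replicate 2, squares replicate 3, black bars the pooled reads, and the dashed line is rank 2133 on a log axis. mRpS23 is far right in all 3 lists, while mRpS6, mRpS31 and mRpS2 cross the line in replicate 3 but not in replicate 2.

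In all, 7 members (9.59%) had a summit among the top 2133 regions of replicate 2, against 10.8% of all genes. In replicate 3 the count was 12 (16.4%), against 10.6% of all genes. Both replicates together held 6 members (8.22%, against 7.49%), and at least 1 replicate held 13 (17.8%, against 14.0%). All 7 of replicate 2 had an IDR summit, while in replicate 3 the members mRpL10 (rank 1022), mRpL4 (rank 1409) and mRpS9 (rank 1447) had none. The count of replicate 2 was near the background, and neither count was tested. Across the 28 members with a region in both replicates, the Spearman correlation of best ranks was 0.69, given as a description since each list ends at a fixed number of regions. The best regions of a member in the replicates were not always the same region, as at mRpL3 and mRpS26. Overlapping regions were present in both replicates for all 10 members with an IDR summit. The IDR list equals the first 2133 regions of the pooled list, and the replicate lists are relaxed, so this count says little by itself. Some kept regions ranked far down in 1 replicate, as at mRpS31 (7291 in replicate 2) and mRpL20 (6490 in replicate 3). No share over all IDR regions is given.

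A further 22 members had a pooled region that ranked below the IDR list, so that 32 of 73 (43.8%) had any pooled region, against 52.8% of all genes. The highest was mRpS22, at rank 3636 (signal 55.7), with 3527 in replicate 2 and 5758 in replicate 3. mRpS9 followed at 3948 (signal 53.4), with 7573 and 1447 for its best replicate regions. The replicate 2 region that overlaps the pooled one ranked only 26683. This is the longest member, at 13391 bp, and its pooled summit lay in an intron, 9753 bp downstream of the start, where it also fell in an intron of wtrw. mRpL17 was at 4921 in the pooled list (signal 47.1) and at 2192 in replicate 3 but only at 29785 in replicate 2. mRpL3 had 4976 (signal 46.8), with 3703 and 3972 for its best replicate regions, and mRpL39 had 5208 (signal 45.6), with 8505 and 5347. The best replicate 3 summit at mRpL3 lay at position -788 from the start, against 67 for the pooled summit. The replicate 3 region that overlaps the pooled one at mRpL3 ranked only 21028. mRpL49, mRpS17, mRpS26, mRpL30 and mRpL19 ranked between 6242 and 8218, with signals from 41.1 to 35.0. Of these 5, mRpS17 had no region in replicate 3. Among the 22, overlapping regions were present in both replicates for 13, and no such count over all genes is given.

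Another 18 members had a region in a replicate list and none in the pooled list, among them mRpL10 and mRpL4. No summit of any list was found at 23 members, so that 50 of 73 (68.5%) had at least 1, against 71.3% of all genes. These 23 were mRpL1, mRpL9, mRpL11, mRpL16, mRpL18, mRpL28, mRpL34, mRpL43, mRpL44, mRpL45, mRpL46, mRpL47, mRpL50, mRpL52, mRpL54, mRpL55, mRpS18A, mRpS18C, mRpS24, mRpS25, mRpS28, mRpS29 and mRpS34. They include mRpS29, whose mammalian counterpart DAP3 is a GTP-binding protein of the small subunit. The symbol rule leaves out tko, the gene of mitochondrial ribosomal protein S12, and bonsai, that of S15. Neither had a summit of any list, nor did CG4866, listed with the synonym mRpS4, which was looked up after the results were seen.

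Most peaks at members lay upstream of the genes, close to start sites. Members are short genes (median 909 bp), and the search added 1000 bp upstream of each. Much of the sequence searched at a typical member was thus upstream by construction. No share of upstream summits over all genes is given, so the upstream counts below do not set members apart from other genes. Of the 32 best pooled summits, 28 were upstream of the member, 2 in its 5′ UTR (mRpL23 and mRpL3), 1 in an intron (mRpS9) and 1 in coding sequence (mRpL37). Among the 10 IDR summits, 9 were upstream and 1, at mRpL23, was 80 bp downstream of the nearest of its 3 starts. The replicate 2 summit at mRpL23, 12 bp from the pooled one, was at position -85 from another of these starts. The side thus depends on the start taken at that gene. Measured from the nearest own start, the 10 summits had a median position of 178.5 bp upstream, with a range from 571 bp upstream (mRpS31) to 80 bp downstream. Within 500 bp of an own start lay 9 of them, so that 12.3% of members had such a summit, against 6.88% of all genes. All 10 genes had a single IDR summit, as did 74.5% of all genes with one. Of the 10, 5 ranked among the 300 strongest IDR peaks, as did 20.2% of all genes with an IDR summit.

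Most member genes share their upstream region with a neighbour. A gene was counted as head-to-head when a start site of another protein-coding gene on the opposite strand lay 0 to 1000 bp upstream of one of its own. This held for 58 of 73 members (79.5%) and for 36.2% of all protein-coding genes. The distance between the closest such starts of members and their neighbours ran from 20 to 793 bp, with a median of 283 bp. Every one of the 10 members with an IDR summit was head-to-head, which makes 17.2% of the 58, against 13.6% of all head-to-head genes. Of the 15 members that were not head-to-head, 0 had an IDR summit, against 8.96% of all such genes. Among head-to-head genes of 500 to 2000 bp, 10 of 55 members (18.2%) and 8.22% of all genes had one. The background for short genes thus rises from 4.24 to 8.22% when only head-to-head genes are counted.

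Each of the 10 IDR summits also fell in the window of another protein-coding gene, as did a summit of 42.6% of all genes with an IDR summit. Between the 2 start sites lay 8 of the 10, against 55.2% of all head-to-head genes with an IDR summit. The exceptions were mRpL23, where the summit was in the member's 5′ UTR, downstream of its nearest start, and mRpS31, where it was in the 5′ UTR of hzg. At mRpL2 the neighbour's start used was the FoxK start closest to the summit, at position -436. The mRpL2 summit lay in an intron of FoxK, and another FoxK start lay 64 bp upstream of the mRpL2 start. Taken with that other start, the summit would not lie between the starts. The member's own start was nearer than the neighbour's at 4 of the 10, against 66.6% of all head-to-head genes with an IDR summit. Both shares over all genes take in genes of every length. Their summits lay a median of 418.5 bp from the neighbour's start, against 114 bp at the members. No share among short genes is given, so neither contrast sets members apart from other short genes. The neighbour's start was the nearer one for the other 6 of the 10 members: mRpS23 (CenG1A, 114 bp), mRpS10 (Art3, 110 bp), mRpL2 (FoxK, 64 bp), mRpS31 (hzg, 114 bp), mRpS2 (Mon1, 34 bp) and mRpL20 (Icmt, 199 bp). Art3 encodes an arginine methyltransferase, FoxK a forkhead transcription factor, Mon1 a subunit of a Rab7 exchange factor and Icmt a prenylcysteine methyltransferase. The member's own start was nearer at mRpL23 (80 bp), mRpL41 (169 bp), mRpL24 (106 bp, against 112 bp for betaggt-I, a prenyltransferase subunit) and mRpS6 (87 bp, against 361 bp for Cip4). The distances to the 2 starts were close at mRpL20 (200 and 199 bp), mRpL24 (106 and 112 bp), mRpS10 (147 and 110 bp) and mRpL23 (80 and 130 bp). Beside a peak width of mostly 396 bp, which start is nearer was not resolved at these 4 genes. When each summit was given to the single nearest start within 1000 bp, 4 of the 10 members remained. A peak between 2 starts cannot be assigned to either gene from these lists.

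**Figure D2:**
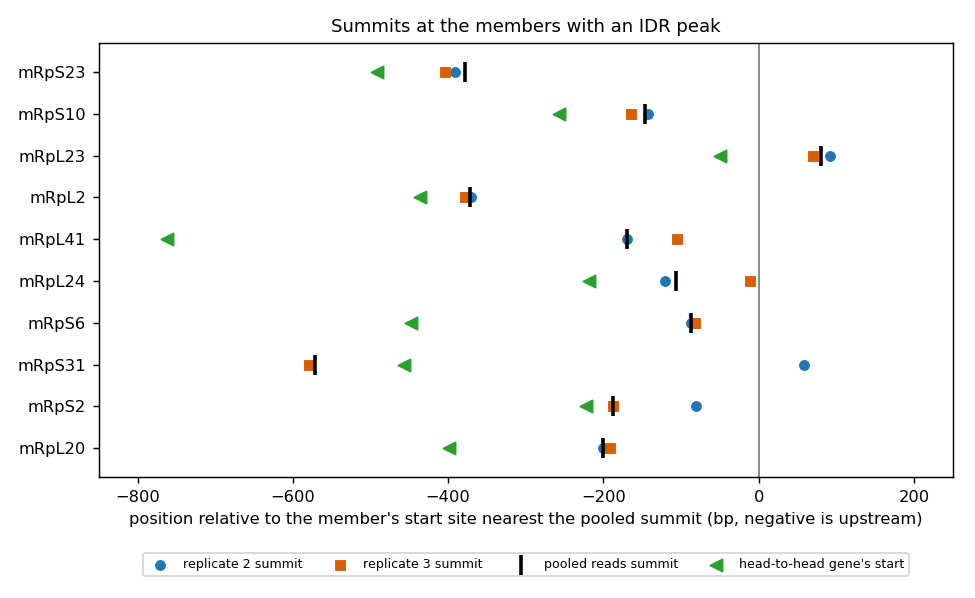
Positions of the best summits at the 10 members with an IDR summit, in bp from the member's start nearest the pooled summit, with negative values upstream. Circles, squares and black bars are replicate 2, replicate 3 and pooled reads, and triangles are the start of the head-to-head neighbour closest to the pooled summit. Most summits lie between the triangle and 0, and the best replicate 2 summit at mRpS31 lies 58 bp downstream, away from the others.

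The summits of the replicates mostly coincided. The best regions of replicates 2 and 3 at the 10 members differed by a median of 22 bp, with a range of 5 to 637 bp, the largest at mRpS31. At mRpL24 the replicate 3 summit was 95 bp from the pooled one, and at mRpS2 the replicate 2 summit was 107 bp from it. At mRpL2, mRpS6 and mRpL20 every replicate summit was within 9 bp of the pooled summit.

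Many promoters of the members held a DRE core or an E-box. The promoter was taken from 250 bp before to 50 bp after the start site. A DRE, the sequence bound by the factor Dref at many housekeeping genes, was found in 15 of 73 member promoters (20.5%, against 8.95% of all promoters). Its core TATCGA, which is part of the DRE, was in 36 (49.3%, against 27.0% of all promoters and 39.0% of head-to-head genes). The E-box CAGCTG was in 40 (54.8%, against 17.9% of all promoters and 22.2% of head-to-head genes). At least 1 of the core and the E-box was in 55 members (75.3%, against 39.6% of all promoters and 52.0% of head-to-head genes). Both were in 21 (28.8%, against 5.41% of all promoters and 9.2% of head-to-head genes). Of the members with an IDR summit, 4 of 10 held the core and 6 of 10 the E-box, and of the other 63, 32 (50.8%) and 34 (54.0%) did. No difference between these groups was tested. E-boxes lay around the start, with a median position of 2 bp downstream over 45 matches, and DRE cores at a median of 32 bp upstream over 69 matches. A full DRE holds the core on both strands and so gives more than 1 of these 69 matches. Within 100 bp of the 10 IDR summits there was 1 with a DRE core (mRpL20) and 1 with an E-box (mRpS2), against 6.89 and 9.42% of all IDR summits.

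The promoters below are shown beside the summit windows above. Those of mRpS23, with a DRE 9 bp before the start, and mRpL2, with an E-box 10 bp after it, belong to genes whose summit windows held neither string. The promoter of mRpL20 holds DRE cores, as its summit window does. They run from 120 bp before to 30 bp after the start site, on the strand of the gene, and capitals mark a DRE core or an E-box.
mRpS23 promoter, chr2L:13835042-13835192, minus strand: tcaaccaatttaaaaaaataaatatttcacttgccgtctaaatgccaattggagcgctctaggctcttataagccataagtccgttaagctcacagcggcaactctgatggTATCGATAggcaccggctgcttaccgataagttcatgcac
mRpL20 promoter, chr3L:13017837-13017987, minus strand: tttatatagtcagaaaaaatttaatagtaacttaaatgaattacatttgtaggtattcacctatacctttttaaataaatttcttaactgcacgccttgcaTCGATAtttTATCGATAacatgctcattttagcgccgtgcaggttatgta
mRpL2 promoter, chr3L:11120727-11120877, plus strand: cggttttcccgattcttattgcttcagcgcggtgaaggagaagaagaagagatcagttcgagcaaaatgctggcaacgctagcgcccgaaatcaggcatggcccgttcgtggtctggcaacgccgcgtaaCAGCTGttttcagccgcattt

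Other strings, apart from a less frequent GAGA repeat, were near the level of all promoters or too rare to compare. A TATA box was in 34 members (46.6%, against 45.3%) and a CA repeat (CACACACA) in 4 (5.48%, against 4.42%). The GAGA repeat, frequent at promoters of all genes with an IDR summit (13.7%), was in 1 member promoter (1.37%, against 6.21% of all promoters), and in none of the 10 with an IDR summit. The kB string GGGRNNYYCC was in 3 (mRpL39, mRpS18A and mRpS33), none with an IDR summit, and in 2.25% of all promoters. The string of NRF1, a regulator of mitochondrial genes in mammals, was in 0 of 73 and in 30 of 13945 promoters. A match describes letters in a window and does not show that a factor binds there.

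**Figure D3:**
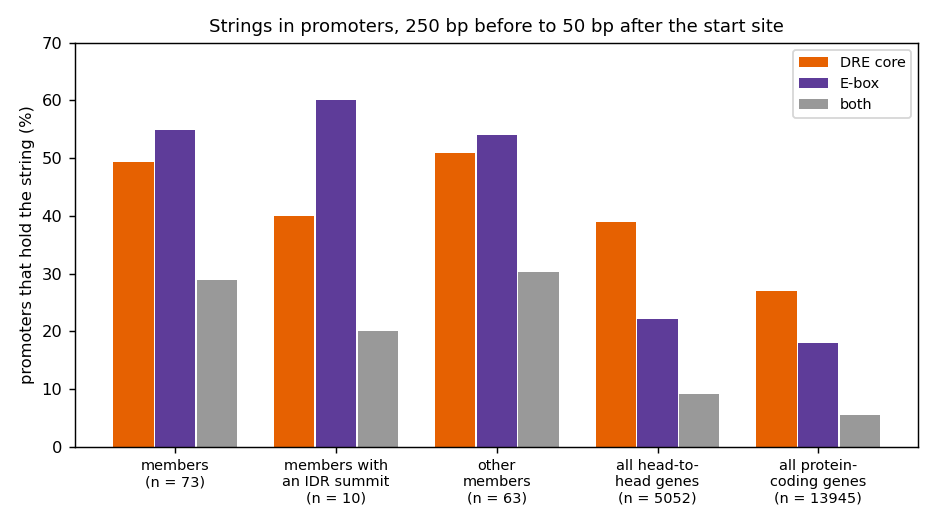
Share of promoters that hold a DRE core, an E-box or both, in percent, for all members, members with and without an IDR summit, all head-to-head genes and all protein-coding genes. E-box bars stand at 54.0% or higher in the member classes, against 22.2% of head-to-head genes and 17.9% of all genes.

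Genes of related function gave other counts. Of 39 genes for mitochondrial transcription, RNA handling and translation, 3 (7.69%) carried an IDR summit: PNPase, an RNA exonuclease (rank 7), SLIRP2, an RNA-binding protein (rank 220), and LeuRS-m, a mitochondrial tRNA synthetase (rank 1732). Elongation and initiation factors such as mEFTu1 and mIF2, the polymerase PolrMT and TFAM had none. The LeuRS-m summit was nearer the start of Dhc64C (664 bp) than its own (position -830). Of 92 nuclear genes of the respiratory chain, taken by symbol pattern, 5 (5.43%) had one: ND-ASHI (rank 217), Cyt-c-p (307), Cyt-c-d (325), ND-39 (518) and ND-15 (1180). At Cyt-c-d, ND-39 and ND-15 the nearest start was that of another gene. Of 92 cytosolic ribosomal protein genes by symbol pattern, 11 (12.0%) had an IDR summit, 17 were in the top of replicate 2 and 16 in that of replicate 3. The share of mitochondrial ribosomal protein genes, 13.7%, was higher than in each of these 3 lists for IDR summits, but lower than that of cytosolic ribosomal protein genes in each replicate. Among genes of 500 to 2000 bp it was 14.7%. There it was 15.1% for cytosolic ribosomal protein genes, 1.43% for respiratory chain genes and 0 of 19 for the first list. None of these differences was tested.

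**Figure D4:**
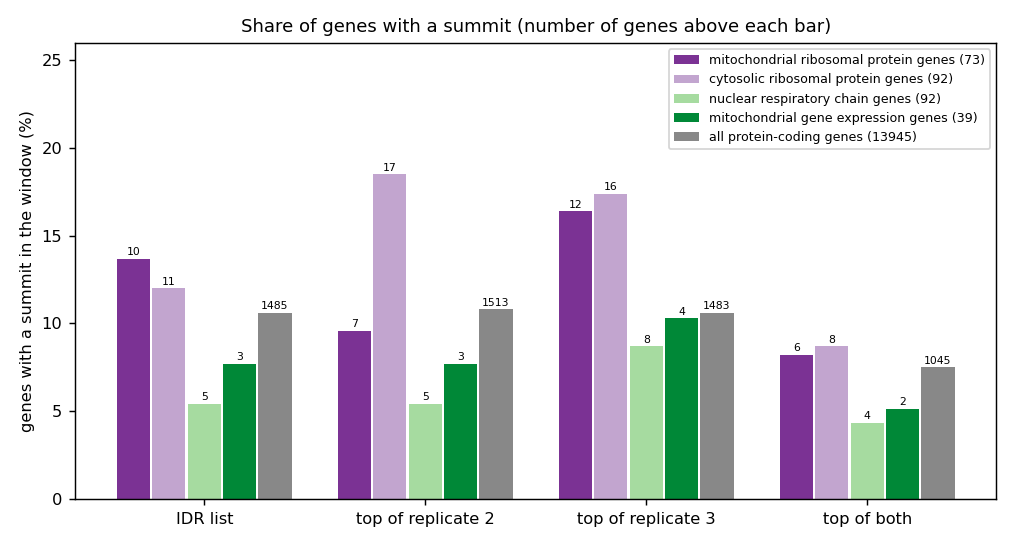
Share of genes with a summit in the gene or 1000 bp upstream, in percent, for 5 gene classes (number of genes in the legend) and 4 criteria, with the number of genes above each bar. Mitochondrial ribosomal protein genes stand at 13.7% in the IDR list, 9.59% in the top of replicate 2 and 16.4% in the top of replicate 3, against 10.6 to 10.8% for all genes.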

How the data were processed

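Per the labels, each of the 2 libraries came from pooled larvae of 1 transgenic line, immunoprecipitated with an anti-GFP antibody. The 4 dm6 lists were used: the list kept after the irreproducible discovery rate (IDR) procedure, and relaxed lists of 30000 regions for pooled reads, replicate 2 and replicate 3. The authors' deposited signal value, set by their peak caller against a control alignment, ranked regions within 1 list only. The deposited −log10 q value selected pooled regions with a q value under 0.05. No source used here names the aligner or the peak caller. The lists hold no read counts, so the depth is unknown and no counting interval is given.

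Genes and start sites came from Ensembl release 115, and sequence from the RefSeq copy of release 6, whose chromosomes hold every dm6 region. A summit was given to each gene whose body or 1000 bp upstream held it. Strings were sought on both strands from 250 bp before to 50 bp after the start site of the canonical transcript. Of 13945 genes, 1 had no canonical transcript and its first transcript was used. No test was made, since there was 1 group and genes are not replicates. Counts stand beside the same count over all protein-coding genes.

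The members, lists and strings were chosen with earlier results of these data known. The length classes, the head-to-head class and the places of summits between start sites were chosen after results were seen. Named genes were every member with an IDR summit or with a summit among the top 2133 regions of a replicate. The rule also took the 10 further members ranked highest in the pooled list, tko and bonsai, and the listed mitochondrial genes with an IDR summit. Alternative settings changed the replicate, threshold, overlap, window, gene assignment, distance, list length or promoter window. Gene assignment and string search were tested on simulated data. Python 3.11.15, numpy 2.4.6, pandas 2.3.3 and matplotlib 3.10.9 were used.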

Additional observations from a re-analysis of the deposited data

How the results depend on the processing

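The main count was 10 members with an IDR summit. No IDR list can be made from 1 replicate. Leaving out a replicate therefore meant taking the top regions of the other one, as many as the IDR list holds. These are the replicate counts already given above and not a further check. They were 7 members without replicate 3 (9.59%, against 10.8% of all genes) and 12 without replicate 2 (16.4%, against 10.6%). Without replicate 3, mRpS2, mRpS31 and mRpS6 were lost; without replicate 2, mRpL20 was lost and mRpL4, mRpL10 and mRpS9 were gained. The count of members with an IDR summit was 5 (6.85%, against 6.08%) with the strongest 1066 IDR regions, a shorter list by construction. It was 1 (mRpL23; 1.37%, against 6.48%) with no bases upstream of the gene, and 4 (5.48%, against 6.93%) when only the nearest start took a summit. With pooled regions of a q value under 0.05 it was 12 (16.4%, against 17.5%), and with any overlap it was also 12 (against 11.0%). It was 9 (12.3%, against 9.86%) with 500 bp upstream and 14 (19.2%, against 11.9%) with 2000 bp. The members were thus below the background without replicate 3, with no upstream bases, by nearest start and at that q value, and above it in the others of these settings. Counting only genes of 500 to 2000 bp or only head-to-head genes, both chosen after seeing the data, left 10 by construction, since all 10 belong to both classes. Only the backgrounds changed, to 4.24% and 13.6% of all genes in these classes. The count of 9 near an own start was 7 with the top regions of replicate 2 and 10 with those of replicate 3. It was 5 (6.85%, against 3.58%) with the strongest 1066 IDR regions. The 6 members among the top regions of both replicates became 11 (15.1%, against 13.1%) with 2 times as many regions. The 15 promoters with a DRE stayed at 15 with 200 bp either side of the start. No paired analysis was possible because there is 1 group. Depth is unknown, and with 2 replicates no spread can be given for a count.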

Other observations

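Replicate 3 held strong regions at mRpL10 and mRpL4 that the pooled list lacks. At mRpL10 the best region ranked 1022 in replicate 3 (signal 48.5) and 2565 in replicate 2 (signal 40.4), with summits at positions -206 and -93 from the start. The closest pooled summit to the replicate 3 summit was 7174 bp away. At mRpL4 the best region ranked 1409 in replicate 3 (signal 42.6), at position -119 from the start, with none in replicate 2. There the closest pooled summit was at -3410 bp from the replicate 3 summit, in the peak ranked 781 that lies 216 bp from a start of cact. In each replicate, 45 of the top 2133 regions (2.11%) had no pooled summit within 500 bp. Why the pooled list lacks them was not tested.

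By chromosome arm, 3L held 5 members with an IDR summit among 17, where 11.9% of all genes had one. On 2L it was 3 of 12 (all genes 9.45%), on 2R 1 of 12 (all genes 10.3%) and on 3R 1 of 21 (all genes 10.2%). The X held 11 members, of which 7 had a pooled region and 0 an IDR summit, while 11.8% of all genes on the X had one.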
